A study of Mus musculus with 4 samples.

Results

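The SCF response of EML cells carrying the KIT mutant D816V is the difference between 2 of the 4 arrays of the series: D816V cells cultured with added stem cell factor (SCF) minus D816V cells cultured without it. EML is a mouse lymphohematopoietic progenitor line that is routinely kept in SCF, which binds and activates the receptor tyrosine kinase KIT. D816V alters the phosphotransferase domain of KIT and is best known from mastocytosis, a disease in which mast cells accumulate. The comparison asks which transcripts differ when ligand is added to cells whose KIT mutant already supports growth without it.

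The D816V groups were without SCF (no agent, culture time not given in the sources used here) and with SCF (250 ng/mL, 48 h). The groups set beside them were EML cells carrying the extracellular mutant Del417-419insY, also without SCF and with SCF (250 ng/mL, 48 h). All 4 groups had been transduced with a pLXSN retrovirus carrying a KIT construct, selected with geneticin, grown without factor until autonomous and sorted for KIT. Each mutant was thus 1 transduced population, whose endogenous Kit gene the labels do not describe as removed, and each group was 1 array. The effects of SCF and of culture time cannot be told apart. No difference below has a replicate and none could be tested. Counts are of genes past a stated fold, and the words higher and lower describe these arrays.

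KIT is a receptor whose binding of SCF leads to dimerisation and to signalling through RAS and ERK, PI3 kinase and STAT5. Mast cells and early blood progenitors depend on it. Mast cells store proteases, histamine and proteoglycan in granules and make prostaglandin D2 and leukotrienes. Growing cells also regulate sterol synthesis through the transcription factor SREBP2 and amino acid supply through ATF4, a factor whose translation increases when amino acids are short or the endoplasmic reticulum is stressed.

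The values were relative log2 levels, around 0 over the table, so that a level can be compared between arrays for a gene but not between genes. Unless stated otherwise, a log2 value of a gene that is not marked as without or with SCF is an SCF difference. The table held 10861 probe sets, which gave 6404 genes with a symbol, 4203 of them from 1 probe set and 2201 from several, averaged. The SD across probe sets was 0.723 on the D816V array without SCF and 0.791 on that with SCF, the widest spread of the 4 arrays (0.591 and 0.594 on the others). For genes with several probe sets the SCF difference in D816V cells had a median SD of 0.189 between the probe sets of a gene, which measures the disagreement of probes on the same RNA and not that of repeat cultures. Whether the EML cells hold the transcripts that define their lineage could not be checked, since relative values give no level above background.

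Over all 6404 genes 21 were 2-fold or more higher with SCF in D816V cells, which is 0.328%, and 84 were 2-fold or more lower, which is 1.31%. At 1.5-fold these counts were 163 (2.55%) and 413 (6.45%), and every list count below is to be read beside these shares. At 3-fold they were 1 (0.0156%), Ankrd37, and 15 (0.234%). The median difference of all genes was -0.05, with 43.9% of genes above 0 and 56.0% below. After cyclic loess the 2-fold counts were 34 higher and 50 lower, and after quantile normalization 23 and 35, so the excess of lower genes was smaller under these scalings. The 21 higher genes included 7 of the sterol pathway, and the 84 lower ones 10 genes of the ATF4 and amino acid list and 8 mast cell genes.

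**Figure D1:**
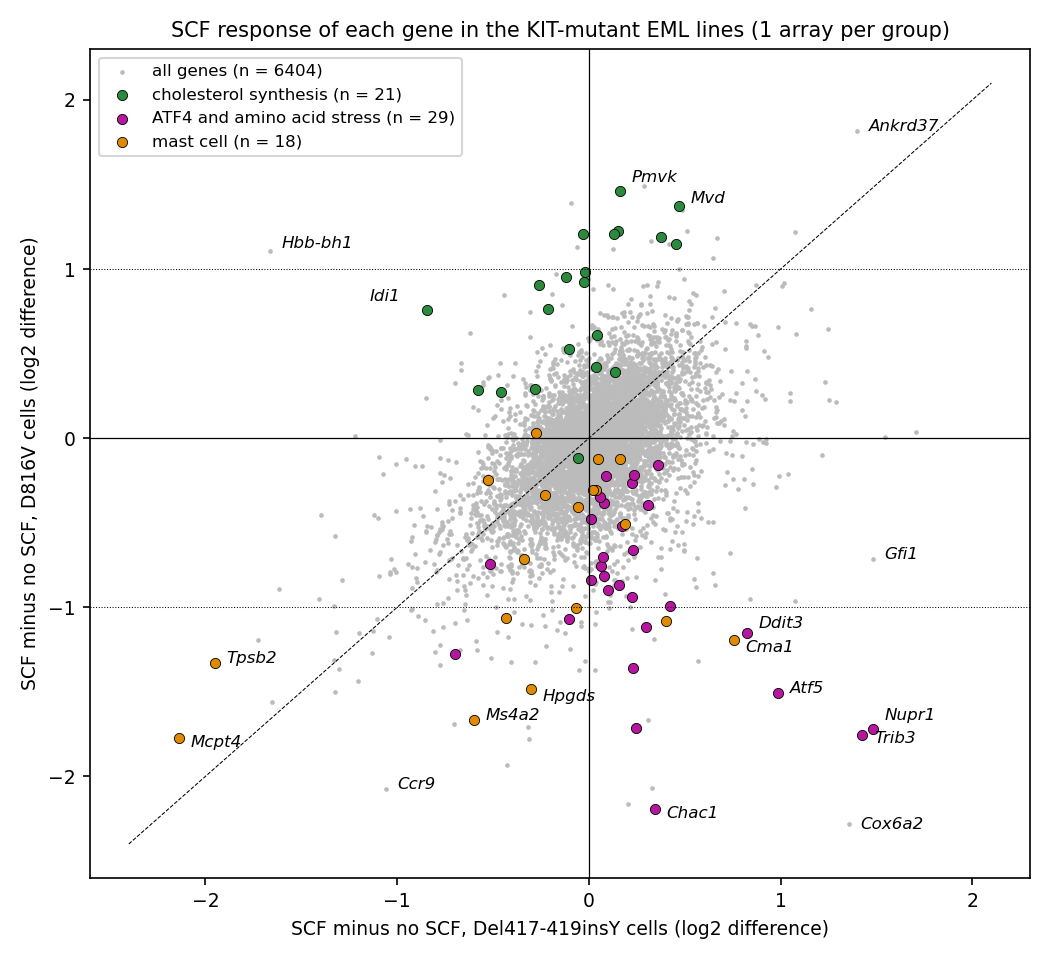
SCF minus no SCF as a log2 difference for each of 6404 genes, with Del417-419insY cells on the x axis and D816V cells on the y axis. Each point is a gene from 1 array per group, dotted lines mark 2-fold in D816V cells, and the dashed line marks equal responses. Of the cholesterol synthesis genes 20 of 21 lie above 0 on the y axis, Idi1 farthest left at -0.84 on the x axis, and all 29 ATF4 genes lie below 0 on the y axis.

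Most measured genes of cholesterol synthesis were higher with SCF in D816V cells. Of 21 measured genes of 28 in this list, 14 were 1.5-fold or more higher, 7 of these 2-fold or more, and none was 1.5-fold lower, with a list median of 0.91 beside -0.05 for all genes. The 2-fold count was 11 after median centring and 10 after cyclic loess. In Del417-419insY cells, where 2.14% of all genes were 1.5-fold higher and 2.86% lower, none of the 21 was higher and 1 was lower, with a median of -0.02. In 20 of the 21 genes the difference was larger in D816V than in Del417-419insY cells.

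The early steps build isoprenoid units from acetyl-CoA through mevalonate. The relative level was -0.77 without and -0.01 with SCF for Hmgcs1, which makes HMG-CoA, a difference of 0.76, and its 5 probe sets ranged from 0.61 to 0.95. Mvk, mevalonate kinase, stood at -0.46 without and 0.69 with SCF, a 2.22-fold higher level. Pmvk, the next kinase of the pathway, went from -0.47 to 1.0 and was the largest of the list at 2.76-fold. For Mvd, mevalonate diphosphate decarboxylase, the level was -0.27 without and 1.10 with SCF, or 2.59-fold, from 2 probe sets with differences of 1.10 and 1.65. These 3 kinase and decarboxylase genes had much smaller differences in Del417-419insY cells, of 0.46, 0.16 and 0.47. Idi1, the isomerase that follows, was at 0.13 without and 0.89 with SCF in D816V cells and at 0.28 without and -0.56 with SCF in Del417-419insY cells, so that its differences of 0.76 and -0.84 pointed in opposite directions.

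The middle steps join the units into squalene and close the sterol ring. Fdps, farnesyl diphosphate synthase, was 1.90-fold higher with SCF (-0.45 without and 0.47 with SCF). Fdft1, squalene synthase and the first enzyme committed to sterols, was at -0.80 without and 0.42 with SCF, which is 2.34-fold. Sqle, the squalene epoxidase, was nearer to the other genes of the array at 1.44-fold, and Lss, which forms lanosterol, was 1.98-fold higher. In Del417-419insY cells Fdps, Fdft1, Sqle and Lss differed by -0.02, 0.15, -0.10 and -0.02.

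The late steps turn lanosterol into cholesterol. Cyp51, the lanosterol demethylase, was at -0.42 without and 0.49 with SCF, and Tm7sf2, a sterol reductase, at -0.08 without and 1.11 with SCF. Msmo1 and Nsdhl, which remove methyl groups from the ring, differed by 0.95 and 1.21, and Dhcr7, the last reductase, by 1.21. Ebp and Sc5d, which act on the sterol nucleus before it, differed by 0.42 and 0.61. Hsd17b7 had the smallest difference of the enzymes (0.28), with 3 probe sets that disagreed and ranged from -0.38 to 1.06. The genes of regulators and of transport stood between Insig2 and Srebf2 in the order of differences. Srebf2, which encodes SREBP2, differed by 0.39, Insig1, whose protein holds SREBP back when sterols are plentiful, by 0.29, and the transport protein gene Stard4 by 0.29. Insig2 was the 1 measured gene of the list below 0, at -0.12.

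**Figure D2:**
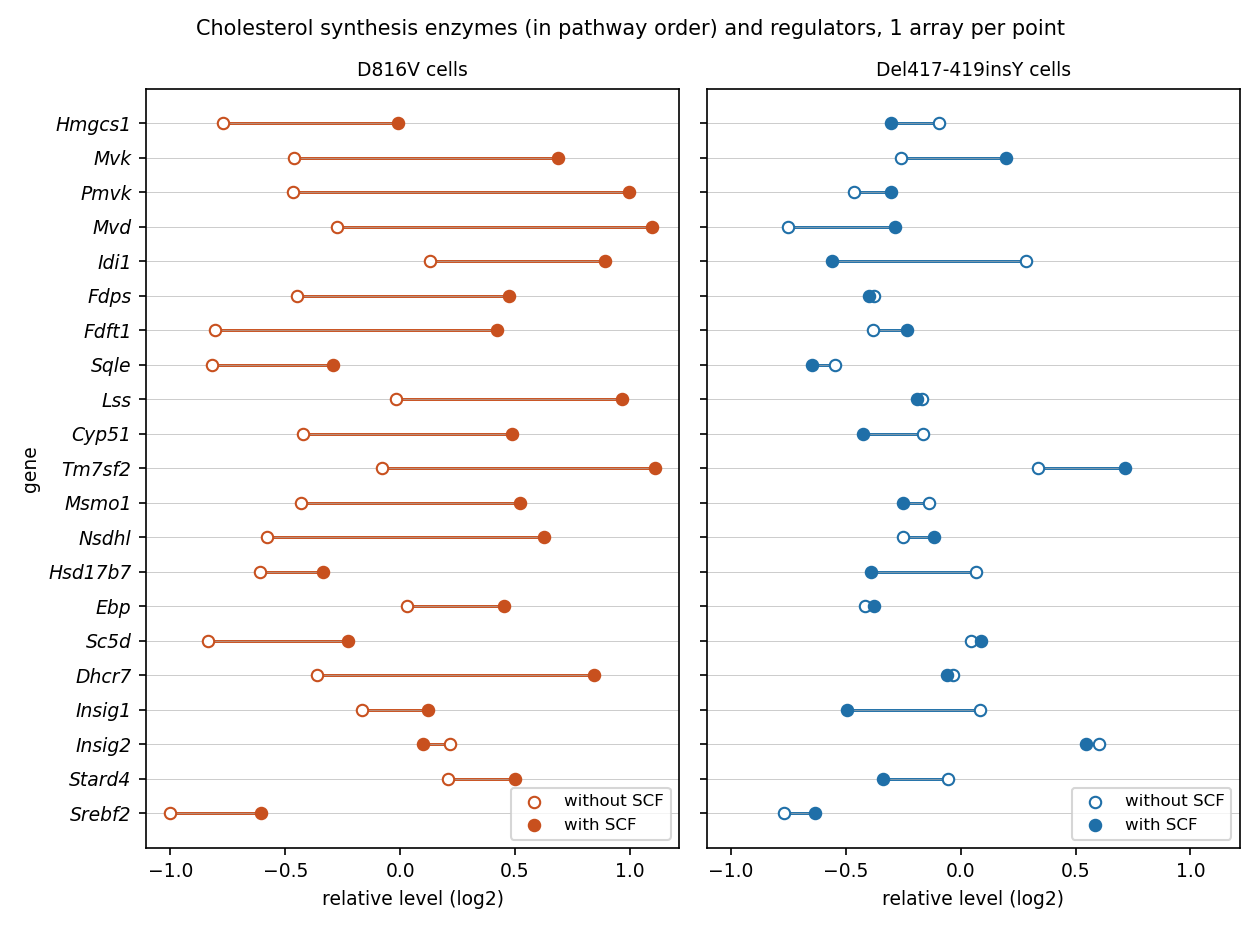
Relative log2 level of the 21 measured cholesterol synthesis genes on each array, with open circles for no SCF and filled circles for SCF, D816V cells on the left and Del417-419insY cells on the right. In D816V cells the filled circle lies right of the open one for 20 of 21 genes, and Pmvk and Mvd have the longest lines.

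Sterol genes are known targets of SREBP2, which acts with the CCAAT-binding factor NF-Y. RefSeq promoter windows (GRCm38.p6, 250 bases before to 50 after a start site) were given for 17 of the 21 genes. The letters CCAAT, on either strand, were in the windows of all 17, beside 43.3% of the 5248 measured genes with a window and 37.4% of all 32851 windows. The letters CACNCCAC, a core of the sterol regulatory element, were in 2 of 17, those of Hmgcs1 and Insig1, beside 7.56% of measured genes and 6.24% of all windows. A match describes letters and no binding. The stretches of 3 genes with large differences are printed 5′ to 3′ on the strand of the gene, with the CCAAT letters (either strand) in capitals, and that of Hmgcs1 with its CACNCCAC letters in capitals. They lie at chr3:89454379-89454435 (plus strand), chr8:122443423-122443475 (minus strand), chrX:72918475-72918520 (plus strand) and chr13:119690189-119690248 (plus strand).
Pmvk: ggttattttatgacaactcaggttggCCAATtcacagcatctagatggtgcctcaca
Mvd: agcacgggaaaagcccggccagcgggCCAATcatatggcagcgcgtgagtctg
Nsdhl: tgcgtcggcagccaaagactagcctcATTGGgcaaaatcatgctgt
Hmgcs1: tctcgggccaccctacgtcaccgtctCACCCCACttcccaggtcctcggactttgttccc

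Genes of fatty acid and lipid synthesis were higher as well, by less. Of 15 measured genes 7 were 1.5-fold or more higher and none 1.5-fold lower in D816V cells, with a median of 0.51, and none was 1.5-fold higher and 1 lower in Del417-419insY cells (median 0.03). Lpin1, a phosphatidate phosphatase, stood at 0.56 without and 1.71 with SCF, or 2.22-fold, and Pcyt2, of phosphatidylethanolamine synthesis, at -0.11 without and 0.79 with SCF. Acaca and Fasn, the carboxylase and the synthase of fatty acids, were 1.67-fold and 1.51-fold higher, and Srebf1, the gene of the SREBP that favours fatty acid genes, 1.65-fold. The elongase genes Elovl1, Elovl5 and Elovl6 differed by 0.17, 0.16 and 0.25, and the desaturase gene Fads1 by -0.14. Outside the list, Aacs, which makes acetoacetyl-CoA for lipid synthesis, was among the 20 largest positive differences, at -0.53 without and 0.59 with SCF.

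Genes controlled by ATF4 and of amino acid supply stood lower with SCF in D816V cells. All 29 measured genes of the 41 in this list were below 0, as they also were after each of the 3 rescalings, 20 were 1.5-fold or more lower and 10 of these 2-fold or more, with a median of -0.84. In Del417-419insY cells 4 were 1.5-fold higher and 1 lower, with a median of 0.23. In each of the 29 genes the difference in D816V cells lay below that in Del417-419insY cells. The difference between the responses could not be tested.

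Among the regulators, Atf4 itself was 1.69-fold lower (-0.09 without and -0.84 with SCF), with its 2 probe sets at -0.90 and -0.61. Ddit3, which encodes the stress factor CHOP, went from 0.64 to -0.51. Atf5, a related factor induced through ATF4, went from 0.10 to -1.41, and Trib3, a pseudokinase that feeds back on ATF4, from 0.53 to -1.22. Nupr1, a small stress-induced chromatin protein, was at 1.19 without and -0.53 with SCF, or 3.29-fold lower. In Del417-419insY cells these last 4 genes were higher with SCF: Ddit3 by 0.83, Atf5 by 0.99, Trib3 by 1.43 and Nupr1 by 1.48. Without SCF the level of Nupr1 was 1.19 in D816V and -1.56 in Del417-419insY cells, and with SCF it was -0.53 and -0.07, so that the order of the lines was turned. Trib3 gave 0.53 and -1.34 without SCF and -1.22 and 0.09 with SCF, in the same pattern. The C/EBP genes Cebpb and Cebpg differed by less in D816V cells, by -0.52 and -0.38. Jdp2, an AP-1 family repressor, was at -2.75 without and -4.11 with SCF.

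Effector genes were lower across several amino acid pathways. Chac1, which degrades glutathione, had the second lowest difference of all 6404 genes, with 0.12 without and -2.08 with SCF, or 4.58-fold lower. Gpt2, a mitochondrial alanine aminotransferase, was at 0.02 without and -1.69 with SCF, and its 4 probe sets ranged from -2.03 to -1.33. Asns, asparagine synthetase, was 1.87-fold lower on 2 probe sets (-0.92 and -0.88). In serine synthesis Psat1 and Psph were 1.79-fold and 1.68-fold lower, whereas Phgdh, which opens that pathway, differed by -0.22. The mitochondrial folate enzymes Mthfd2 and Shmt2 differed by -0.99 and -0.66. Eif4ebp1, a repressor of cap-dependent translation, was 1.82-fold lower.

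Amino acid transporters belonged to the same side. Slc1a5, a glutamine carrier, was 2.42-fold lower (0.86 without and -0.41 with SCF), although its probe sets lay apart, at -1.76 and -0.80. Slc1a4, a neutral amino acid carrier, and Slc7a1, which imports arginine and lysine, were 2.17-fold and 2.1-fold lower. Slc7a5, the large neutral amino acid carrier, was 1.92-fold lower, while Slc3a2, its heavy chain, differed by -0.40, and Slc38a2 by -0.27. Slc1a5 was also lower in Del417-419insY cells (-0.70), and so was Psph (-0.51). Stc2 had the smallest difference of the list at -0.16, with 3 probe sets from -0.56 to 0.22.

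**Figure D3:**
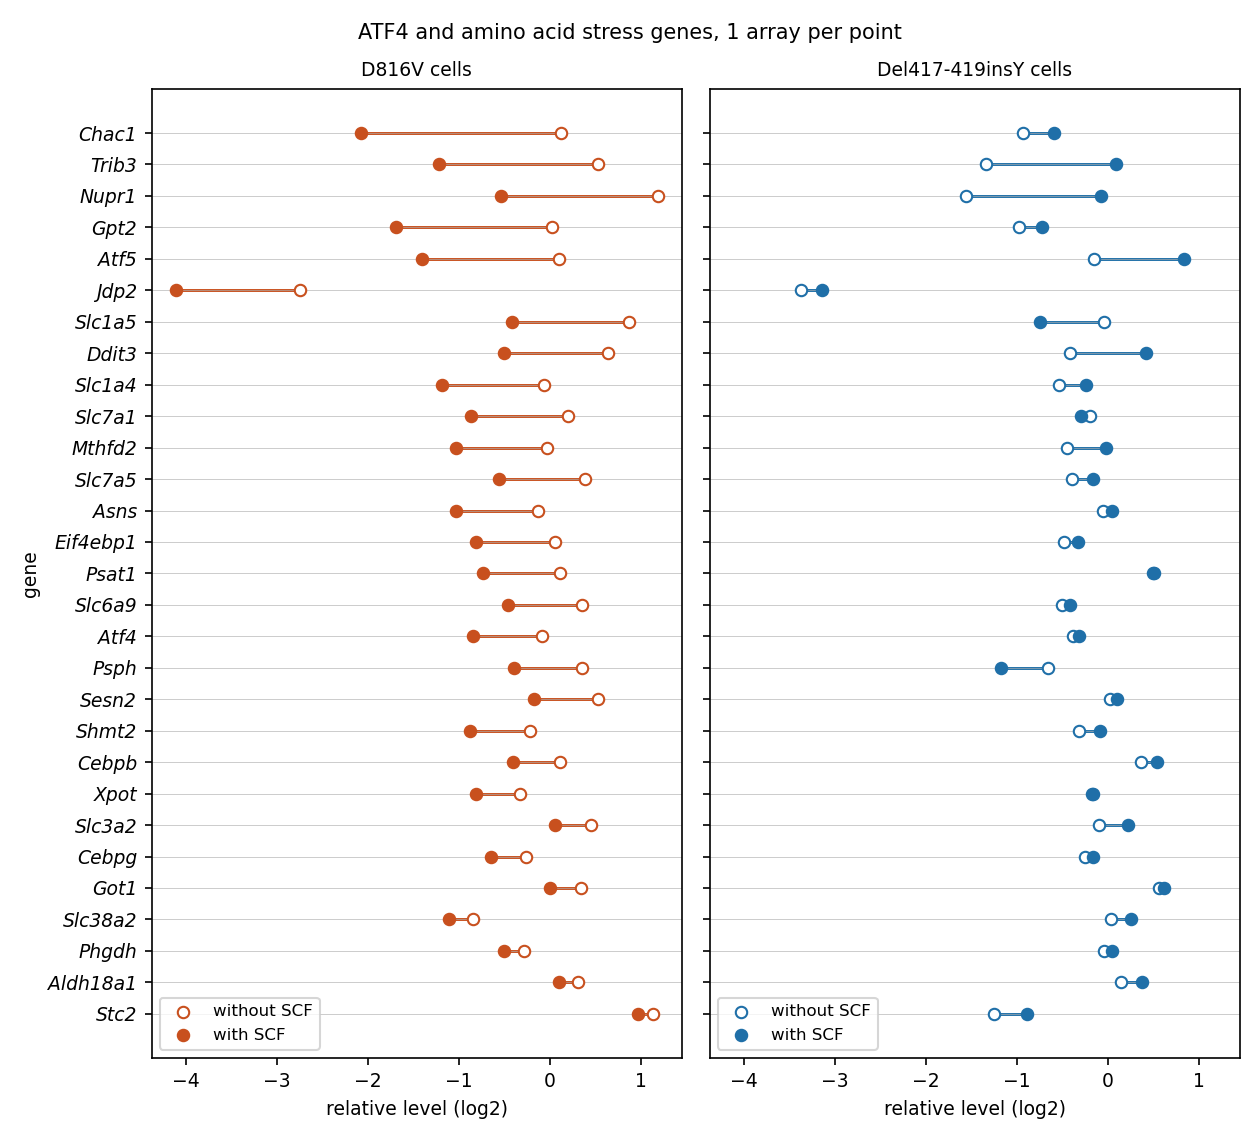
Relative log2 level of the 29 measured ATF4 and amino acid stress genes on each array, ordered by the D816V difference, with open circles for no SCF and filled circles for SCF. The filled circle lies left of the open one in all 29 genes in D816V cells, and in Del417-419insY cells it lies 1.5-fold or more to the right for Trib3, Nupr1, Atf5 and Ddit3.

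ATF4 and its C/EBP partners are known to bind a composite element whose letters include TGATGNAA. On either strand these letters were in the windows of 7 of the 26 listed genes that had a window, 26.9%, beside 2.72% of the 5248 measured genes and 3.97% of all 32851 windows. The 7 were Asns, Chac1, Got1, Jdp2, Nupr1, Slc1a4 and Trib3. Among all measured genes with a window, 25 of the 331 that were 1.5-fold or more lower held the letters (7.55%). Of the 130 that were 1.5-fold or more higher, 5 held them (3.85%). The lower genes include listed ones such as Chac1, Nupr1 and Trib3, so their share is not independent of the list. Stretches before the start site are printed for the 3 enzyme and regulator genes Chac1, Nupr1 and Asns, with the matching letters in capitals, at chr2:119351023-119351082 (plus strand), chr7:126625547-126625606 (minus strand, overlapping the predicted locus Gm39087) and chr6:7693210-7693258 (minus strand).
Chac1: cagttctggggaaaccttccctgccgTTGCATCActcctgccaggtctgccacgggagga
Nupr1: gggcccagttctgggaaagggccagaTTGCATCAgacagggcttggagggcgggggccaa
Asns: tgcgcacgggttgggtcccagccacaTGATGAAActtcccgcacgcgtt

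Cytosolic aminoacyl-tRNA synthetases, which charge tRNAs and many of which respond to ATF4, were lower in part. Of 18 measured genes 7 were 1.5-fold or more lower, none 2-fold, and 14 were below 0, with a median of -0.47 (0.06 in Del417-419insY cells, where none passed 1.5-fold). The count at 1.5-fold was 4 after median centring, 2 after quantile normalization and 3 after cyclic loess. Cars, Lars, Nars and Yars, of cysteine, leucine, asparagine and tyrosine, differed by -0.90, -0.86, -0.76 and -0.72. Aars, Sars and Iars followed at -0.67, -0.65 and -0.61. At the other end Qars, Farsa and Hars stood at 0.19, 0.05 and 0.01, and Wars at -0.05. The TGATGNAA letters were in the windows of Aars, Gars, Iars, Tars and Yars, 5 of the 12 genes with a window. Gars and Tars, which differed by -0.50 and -0.45 and did not pass 1.5-fold, are shown because their matches lie close before their start sites, at chr6:55037945-55038000 (plus strand) and chr15:11399659-11399699 (minus strand).
Gars: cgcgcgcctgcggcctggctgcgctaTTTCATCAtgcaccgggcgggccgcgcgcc
Tars: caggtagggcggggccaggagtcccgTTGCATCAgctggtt

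The unfolded protein response, which shares ATF4 with amino acid stress, gave 1 of 15 genes 1.5-fold higher and 2 lower, with a median of -0.23, and 1 lower after quantile normalization (median -0.12). Herpud1 and Dnajb9 differed by -0.84 and -0.72, while the protein disulfide isomerase gene Pdia4 stood at 0.88 and the chaperone genes Calr and Hsp90b1 differed by 0.02 and -0.32. None of 12 heat shock and chaperone genes passed 1.5-fold (median -0.12).

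Of the 18 measured mast cell genes 9 were 1.5-fold or more lower with SCF in D816V cells. Of these 9, from a list of 33 genes, 8 were 2-fold or more lower, and none of the 18 was 1.5-fold higher, with a median of -0.61. After median centring, quantile normalization and cyclic loess the 2-fold count was 5, 4 and 5. In Del417-419insY cells 3 were 1.5-fold lower and 1 higher (median -0.15). In these whole cultures fewer cells of a kind and less RNA per cell cannot be told apart.

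Among the proteases, Mcpt4, a chymase of connective tissue mast cells, was at 0.35 without and -1.42 with SCF, or 3.42-fold lower, and Tpsb2, a tryptase, at -0.19 without and -1.52 with SCF. Both were also lower in Del417-419insY cells, with differences of -2.14 and -1.95. Cma1, another chymase, went from 2.6 to 1.41 in D816V cells and from -2.44 to -1.68 in Del417-419insY cells. Mcpt2, a mucosal mast cell protease, went from 1.73 to 0.65 and from -0.61 to -0.21, and Mcpt8, a basophil protease, from 1.01 to 0.01 and from -0.99 to -1.05. For Cma1, Mcpt2 and Mcpt8 both D816V arrays thus stood above both Del417-419insY arrays. Each of these 5 protease genes had 1 probe set, and chymase genes are close paralogs whose transcripts the probes may share.

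Among the genes of mediators and receptors, Hpgds, the hematopoietic prostaglandin D2 synthase, was 2.80-fold lower (1.09 without and -0.39 with SCF). Hdc, which makes histamine, was 2.09-fold lower on 2 probe sets, -1.25 and -0.88. Ms4a2, the beta chain of the IgE receptor, was 3.17-fold lower (-0.70 without and -2.37 with SCF), on a pair of probe sets at -1.68 and -1.66. The other receptor chains differed by less, Fcer1a by -0.25 and Fcer1g by -0.12. Tph1, of serotonin synthesis, was at 4.96 without and 4.99 with SCF, and Srgn, the granule proteoglycan core, differed by -0.13. The IgE receptor thus had its beta chain far lower and its other chains lower by less, beside a median of -0.05 for all genes.

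The transcription factor genes Mitf and Gata2 differed by -0.71 and -0.31, and the 2 probe sets of Mitf by -1.28 and -0.15. Kit was at -1.83 without and -2.34 with SCF in D816V cells and at -0.76 without and -0.57 with SCF in Del417-419insY cells, with a D816V difference of -0.51 and 2 probe sets at -0.63 and -0.38. No source used here says whether these probe sets read the retroviral construct. Outside the list Ptgs2, the inducible cyclooxygenase, was 3.44-fold lower (-0.47 without and -2.25 with SCF), and Mgst2, a glutathione transferase that can form leukotriene C4, 3.26-fold lower (2.77 without and 1.06 with SCF).

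**Figure D4:**
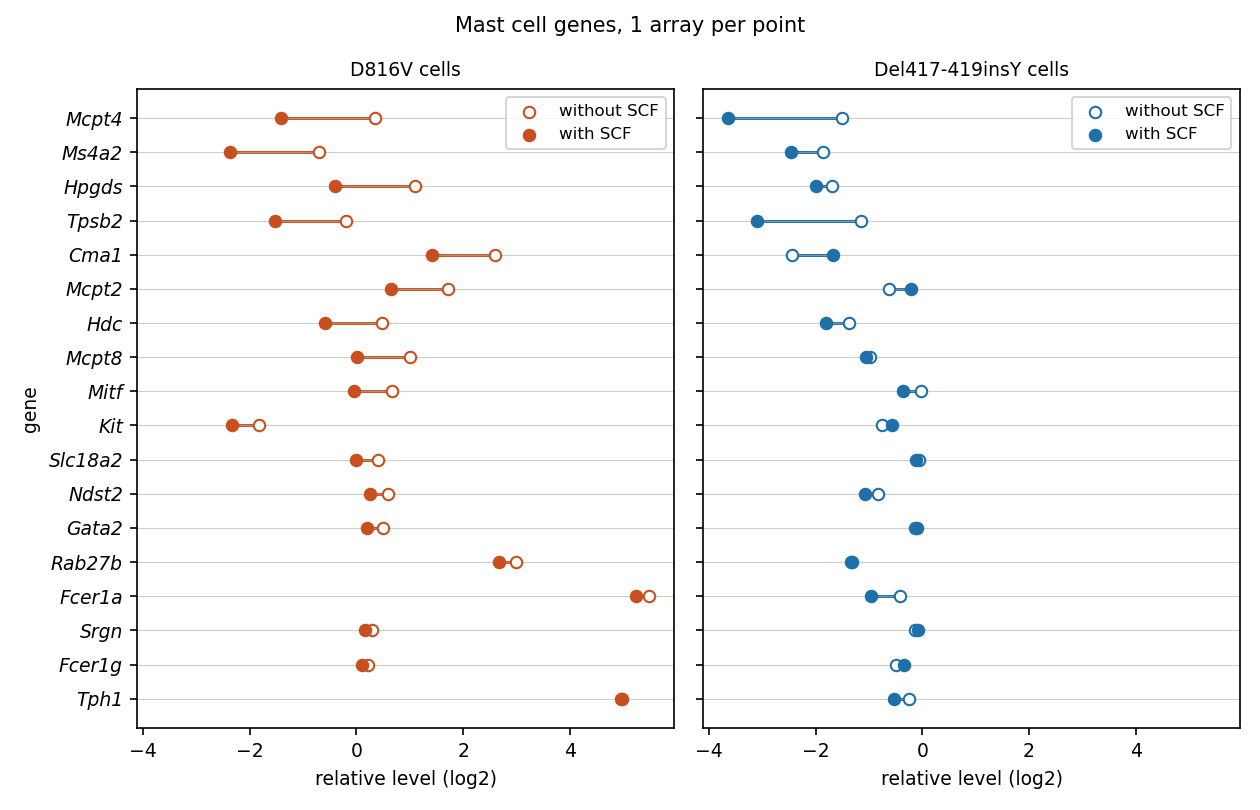
Relative log2 level of the 18 measured mast cell genes on each array, ordered by the D816V difference, with open circles for no SCF and filled circles for SCF. In D816V cells the filled circle lies left of the open one for 17 of 18 genes, from Mcpt4 at the top to Fcer1g, and the Tph1 circles coincide.

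Other lineages were mixed. Of 17 granulocyte and monocyte genes 7 were 1.5-fold lower and 1 higher (median -0.44). That median moved to -0.15 after quantile normalization and to -0.23 with the highest-mean probe set. The lysozyme genes Lyz2 and Lyz1 differed by -1.25 and -1.04, Cebpd by -1.08 and Ms4a3 by -1.26. Lyz2 and Lyz1 had similar levels in D816V cells, -1.1 and -1.2 without SCF and -2.4 and -2.2 with it. Whether their probes share transcripts was not checked. The neutrophil genes Mpo and Prtn3 differed by -0.04 and 0.48, and Csf3r, the G-CSF receptor, by 0.62. Stem and progenitor genes gave 3 of 13 lower and none higher (median -0.31), none passing 1.5-fold after quantile normalization or cyclic loess. Among them Gfi1, a repressor that neutrophil formation requires, was at -3.19 without and -3.91 with SCF in D816V cells and at -2.47 without and -0.99 with SCF in Del417-419insY cells. Runx1, Myb and Sox4 differed by -0.68, -0.57 and -0.55, but the 4 probe sets of Runx1 disagreed and ranged from -1.38 to -0.015.

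Erythroid genes were 4 of 13 higher and none lower at 1.5-fold (median 0.31). The embryonic globin gene Hbb-bh1 was at 1.52 without and 2.63 with SCF, with 3 probe sets from 0.97 to 1.25. In Del417-419insY cells it was at 3.16 without and 1.5 with SCF. Hbb-y, another embryonic globin gene, differed by 0.04 in D816V cells. Globin genes are close paralogs whose transcripts the probes may share. Ermap, Car2 and Klf1 were higher by 0.94, 0.76 and 0.60, and in Del417-419insY cells by 0.49, 1.16 and 0.46. Megakaryocyte genes gave 2 of 12 lower and none higher (median -0.29), with the platelet chemokine gene Ppbp at -0.82 and Plek at -0.60. None of them was 1.5-fold lower after quantile normalization (median -0.15) and 1 was after cyclic loess or median centring. None of 8 lymphoid genes passed 1.5-fold (median 0.10), and 1 was higher after median centring or cyclic loess. Of 3 dendritic and antigen presentation genes 1 was lower, Itgax at -0.66, which passed under none of the 3 rescalings, and of 3 fibroblast and endothelial genes 1 was lower, Fap at -0.80.

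The signalling lists hold genes of the pathways below KIT and their targets. Only RNA was measured, at 48 h with SCF, so the values give transcript levels and not the activity of a pathway. None of the 17 measured KIT and MAPK feedback genes was 1.5-fold higher with SCF in D816V cells. In this list 4 were 1.5-fold lower and 15 were below 0, with a median of -0.45 (0.04 in Del417-419insY cells). The count was 1 after median centring or quantile normalization and 7 with the highest-mean probe set. Fos, an immediate early factor, was at -0.89 without and -1.85 with SCF, Ier2 at 0.36 without and -0.31 with SCF and Fosl2 at 1.96 without and 1.31 with SCF. Dusp6, the ERK phosphatase that ERK itself induces, was 1.57-fold lower, at 0.67 without and 0.02 with SCF, and Dusp4 and Dusp1 differed by -0.45 and -0.44. In Del417-419insY cells Fos, Ier2 and Dusp6 differed by 0.10, 0.09 and 0.12. Etv5, an ERK-induced factor, differed by 0.04 and Egr1 by -0.50 in D816V cells.

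STAT5 targets gave 1 of 14 higher and 3 lower (median -0.16), with 1 lower after quantile normalization or cyclic loess. The feedback inhibitor genes Socs2 and Cish differed by -0.59 and -0.57. Both had a level of 4.35 without SCF, and of 3.75 and 3.78 with it. Ccnd2 and Bcl6 differed by -0.80 and -0.77, the kinase gene Pim2 by 0.67 and Socs3 by 0.51. In Del417-419insY cells Cish, Pim2 and Socs3 had larger differences in the same directions, of -0.79, 0.87 and 0.91. Socs2, Ccnd2 and Bcl6 differed there by -0.11, -0.37 and 0.37. FOXO targets, which PI3 kinase signalling holds down, gave 2 of 23 higher and 2 lower (1 and 1 after quantile normalization, median -0.07), and the sign of that median turned under each of the 3 rescalings, with Sesn1 at 0.76 and Gadd45a at -1.0. Of 12 PI3K and mTOR components 2 were lower, the phosphatase gene Inpp4b (2.18 without and 0.75 with SCF) and Gsk3b (-0.99), and none higher (median -0.32). Of 25 KIT signalling proteins 2 were lower and none higher (median -0.17). These were the adaptor gene Nck2, with a difference of -1.5, and Lat2, an adaptor of mast cell signalling, with -0.64. The count was 1 under each of the 3 rescalings. Inpp4b, Gsk3b and Nck2 were lower in Del417-419insY cells too, with differences of -1.21, -1.33 and -1.32.

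NF-kB targets gave 3 of 13 higher and 1 lower (median 0.37), the lower one being Ptgs2. Ccl5 differed by 0.70, Birc3 by 0.68 and Relb by 0.65. Cytokine and growth factor genes gave 1 of 6 higher and 1 lower (median -0.27), with the chemokine gene Ccl9 at -0.73, and neither passed after quantile normalization. Of 31 interferon response genes none was 1.5-fold higher and 3 were lower (median -0.02). These were Usp18, which limits interferon signalling, with a difference of -1.13, and the GTPase genes Iigp1 and Irgm2, with -0.66 and -0.62. The count of lower interferon genes was 1 after median centring or quantile normalization.

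Of 17 glycolysis genes 5 were 1.5-fold higher and 1 lower (median 0.27, and 0.23 in Del417-419insY cells). The glucose transporter gene Slc2a1 was at 0.52 without and 1.44 with SCF on 3 probe sets (0.71 to 1.09). Pfkl and Pfkm, the liver and muscle phosphofructokinases, differed by 0.72 and 0.60. Pfkp, the platelet form, differed by -0.70, with 2 probe sets at -1.10 and -0.30. Of 21 hypoxia response genes 4 were 1.5-fold higher and 1 lower in D816V cells (median 0.12, with 11 above and 10 below 0), and 4 higher and none lower in Del417-419insY cells (median 0.24). Ankrd37, a target of hypoxia-inducible factor, had the largest positive difference of all 6404 genes, at -0.23 without and 1.59 with SCF, or 3.52-fold. Bnip3, of mitochondrial clearance, was 2.27-fold higher (0.64 without and 1.82 with SCF). Other genes of that list, such as Ndrg1, Hilpda and Plod2, stood at -0.38, -0.25 and -0.43. The letters ACGTG, the core that hypoxia-inducible factor reads, were in the windows of 15 of the 18 listed genes with a window, 83.3%, beside 31.2% of measured genes and 19.6% of all windows. They were in 30.8% of the genes 1.5-fold or more higher and 32% of those lower, close to the share of measured genes. That of Bnip3 is printed with the letters in capitals; its CACGTG holds the core on both strands, at chr7:138909583-138909639 (minus strand).
Bnip3: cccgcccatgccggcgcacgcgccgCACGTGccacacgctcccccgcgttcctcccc

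Growth and housekeeping lists are to be read beside the 2.55% of all genes that were 1.5-fold higher and the 6.45% that were lower. Of 40 cell cycle genes none was 1.5-fold higher and 2 were lower, Neil3 at -1.36 and E2f8 at -0.81 (median -0.12), with Mki67 at 0.37 and Top2a at -0.42. Ribosome biogenesis genes gave 5 of 31 lower and none higher (median -0.11, and -0.27 in Del417-419insY cells), led by Nop58 at -0.98 and Imp4 at -0.84, with 2 lower after quantile normalization and 8 with the highest-mean probe set. Of 12 DNA repair genes 1 was lower, Neil3 again (median -0.10). Oxidative phosphorylation genes gave 1 of 22 lower and none higher (median 0.09). That gene, Cox6a2, the muscle form of a cytochrome oxidase subunit, had the lowest difference of all genes, at -0.89 without and -3.17 with SCF, or 4.86-fold, on 2 probe sets (-2.58 and -1.99), and it was at -0.68 without and 0.68 with SCF in Del417-419insY cells. Targets of p53 gave 1 of 14 higher and 2 lower (median -0.24), apoptosis regulators 2 of 14 lower and none higher (median -0.30), with Bid at -0.72 and Xiap at -0.65. After quantile normalization or cyclic loess no apoptosis regulator was 1.5-fold lower, and the median was -0.15 or -0.13. The p53 targets gave 1 lower after quantile normalization, with a median of -0.11, and 2 after cyclic loess, with -0.06. Lysosome and autophagy genes gave 2 of 20 higher and none lower (median 0.03), Scpep1 and Wipi1 at 0.90 and 0.69. Cytoskeleton and adhesion genes gave 2 of 25 higher and 3 lower (median 0.04), and 4 higher and 2 lower after quantile normalization. The integrin gene Itgae and Lpxn differed by -1.09 and -1.31, against 0.69 for Smtn and 0.68 for Itgb2. In Del417-419insY cells these 4 genes differed in the same directions, by -0.70, -1.33, 0.71 and 0.77.

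**Figure D5:**
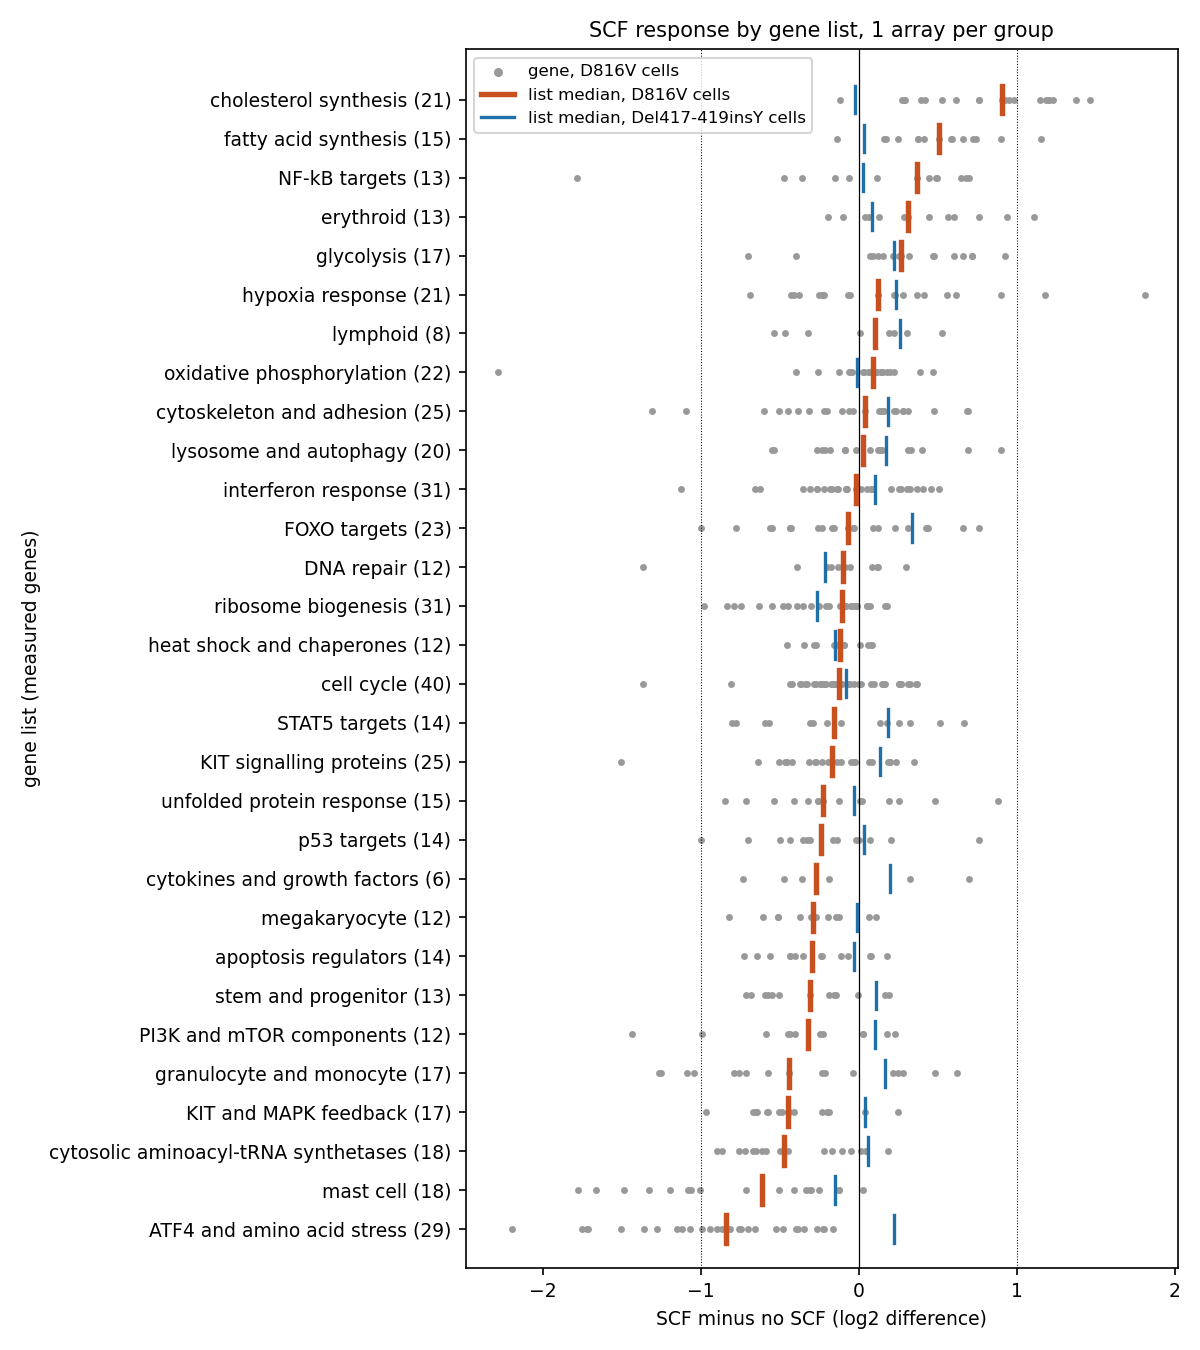
SCF minus no SCF in D816V cells as a log2 difference (x axis) for each gene of the 30 lists with 5 or more measured genes (y axis, number measured in brackets). Grey points are genes, orange bars the list median in D816V cells and blue bars that in Del417-419insY cells; the lists run from cholesterol synthesis at 0.91 to ATF4 and amino acid stress at -0.84.

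Some of the largest differences in D816V cells lay outside every list. On the higher side were Rnf128, a ubiquitin ligase, at 2.18 without and 3.67 with SCF, and Itih5, an extracellular matrix protein gene, at 2.92 without and 4.31 with SCF. Cldn13, a claudin, was at -1.58 without and -0.23 with SCF, and Rras, a small GTPase, at 0.48 without and 1.70 with SCF. Rflna, Arnt2, Pygl, Gpr34 and Castor2 were 2.32, 2.25, 2.19, 2.09 and 2.00-fold higher, Pygl being a glycogen phosphorylase. Of these 9 genes each had 1 probe set, and in Del417-419insY cells they differed by between -0.09 for Itih5 and 1.07 for Rflna.

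On the lower side Ccr9, a chemokine receptor, was at -1.06 without and -3.13 with SCF, and P2rx3, an ATP-gated channel, at -0.71 without and -2.78 with SCF on 3 probe sets from -2.23 to -1.97. Hmox1, the heme-degrading and stress-induced oxygenase, was 3.23-fold lower (0.62 without and -1.07 with SCF). The uncharacterised 4930550C14Rik and the oocyte-secreted protein gene Oosp1 were at -2.16 and -1.93, the T cell receptor segment Trav6-3 at -1.67, and Fgfr1op2 at -1.56. Of the 84 genes 2-fold lower 25 had several probe sets, and in 24 of these all probe sets were below 0. The exception was Malat1, named here after its values were seen, with 5 probe sets from -2.29 to 0.13. All 6 of the 21 higher genes with several probe sets had them all above 0.

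The SCF response of Del417-419insY cells comes from the other 2 arrays and shares none with that of D816V cells. In those cells 21 genes were 2-fold higher (0.328%) and 35 lower (0.547%). The 2-fold higher genes shared by the lines were Ankrd37 and Rflna, 9.52% of the list of each line. The shared lower genes numbered 15, 17.9% of the 84 in D816V and 42.9% of the 35 in Del417-419insY cells, among them Mcpt4, Tpsb2, Nck2, Inpp4b, Neil3 and Ccr9. Across the 6404 genes, which are not independent, the responses of the lines correlated with Pearson's r of 0.452 and Spearman's rho of 0.464. Of the 84 genes lower in D816V cells 62 were below 0 and 22 above 0 in Del417-419insY cells. Of the 21 higher genes 17 were above 0 there.

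The response differed by 2-fold or more between the lines in 113 genes of the 6404, 22 with the larger value in D816V cells (0.344%) and 91 with the smaller (1.42%). At 1.5-fold these shares were 1.94% and 6.12%, and at 3-fold 0.0312% and 0.265%. The largest positive differences between the responses, D816V minus Del417-419insY, were those of Hbb-bh1 (2.77), Idi1 (1.6), Itih5 (1.48) and Pmvk (1.30). The largest negative ones were those of Cox6a2 (-3.64), Nupr1 (-3.20), Trib3 (-3.18) and Chac1 (-2.54). These differences of differences rest on 4 arrays and were not tested. In 15 genes (0.234%) the responses were 1.5-fold or more and of opposite sign, 12 lower in D816V and higher in Del417-419insY cells and 3 the other way, Hbb-bh1, Idi1 and Ccdc25.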

How the data were processed

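The deposited values were 1 column per array from Affymetrix-type probe sets, normalized by the authors with RMA, per the submitters' processing notes; its version, the centring of the table and the choice of its 10861 probe sets are not stated by the sources used here. Its unit is taken as log2, the usual scale of deposited RMA values, which no source states; on another base every fold here would change. Probe sets with 1 symbol in the platform annotation (9633 of 10861; 264 had several and 964 none) were checked against RefSeq names, with 11 unmatched, and averaged to 6404 genes.

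The difference was SCF minus no SCF, 1 array per side, with no test and no p-value. Genes were counted at 2-fold, and at 1.5-fold in lists. Members and the 32 gene lists were chosen with earlier results of these data known. Text genes are the 20 largest differences each way, up to 4 members at each end of a list, genes opposite in the lines and the 10 largest response differences each way; further list members were added for their role after their values were seen. Alternatives were other probe set summaries, median centring, quantile normalization and cyclic loess (limma 3.58.1, R 4.3.3), a filter at the 25th percentile and other folds. The counting code was run on simulated data with little noise and planted differences well past 2-fold, which checks the code and not the results. Promoter windows came from RefSeq (GRCm38.p6).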

Additional observations from a re-analysis of the deposited data

Results flagged for a closer look

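In 15 genes the SCF differences lay on opposite sides of 0 in the lines, 1.5-fold or more in each, with 1 array per group, so that the difference between the lines was not tested. The values below are the D816V difference minus the Del417-419insY difference on the log2 scale. Genes of ATF4 and amino acid stress were Nupr1 (-3.20), Trib3 (-3.18), Atf5 (-2.49) and Ddit3 (-1.98). Pck2, the mitochondrial phosphoenolpyruvate carboxykinase, stood at -1.79. The mast cell chymase gene Cma1 gave -1.95 and the myeloid repressor gene Gfi1 gave -2.20. Gpr183, a receptor for oxysterols, gave -2.04, with a level of 1.14 without and 0.17 with SCF in D816V cells and 0.04 without and 1.11 with SCF in Del417-419insY cells. The muscle cytochrome oxidase gene Cox6a2 had the most negative value, -3.64. The histone genes H2aw and H3c7 gave -1.53 and -1.42, and 3110040M04Rik gave -1.45. On the other side were the embryonic globin gene Hbb-bh1 (2.77), the isoprenoid isomerase gene Idi1 (1.6) and Ccdc25 (1.25).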

How the results depend on the processing

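No paired analysis was possible because each group was 1 array and the labels carry no replicate numbers; for the same reason no array could be left out. All 84 lower and 21 higher genes kept their sign under median centring, quantile normalization and cyclic loess, and 62, 35 and 50 of the lower ones and 21, 15 and 21 of the higher ones were still 2-fold. The count of higher genes, 21, was 32 after median centring and 34 after cyclic loess, and the count of lower genes, 84, was 35 after quantile normalization and 50 after cyclic loess. Taking the probe set with the highest mean gave 145 lower genes, and 55 rather than 17 in the same direction in both lines. Since the values are relative, the highest mean need not mark the probe set with the strongest signal. A filter at the 25th percentile of level kept 4803 of the 6404 genes. It kept 39 of the 84 lower genes and 19 of the 21 higher ones, and left 54 rather than 113 response differences. The filter used the mean relative level over these same arrays, so a gene with a low value with SCF is removed more readily. Why more lower than higher genes were lost was not tested. Counts of higher and lower genes were 163 and 413 at 1.5-fold, 1 and 15 at 3-fold, 6 and 24 among genes with several probe sets in 1 direction, and 44 and 291 over probe sets; response differences numbered 516 at 1.5-fold and 19 at 3-fold. Of the list medians, that of granulocyte and monocyte genes (-0.44) was -0.23 with the highest-mean probe set and -0.15 after quantile normalization. With the percentile filter the mast cell median (-0.61) was -0.32 over 12 genes and that of the synthetases (-0.47) was -0.17 over 13; the cause was not tested. The median changed sign under at least 1 setting for 8 of the 32 lists. For FOXO targets, interferon response, heat shock and chaperones, cell cycle, DNA repair, and lysosome and autophagy it lay between -0.12 and 0.03. With the percentile filter, cytokines and growth factors went from -0.27 to 0.07 over 4 genes and dendritic and antigen presentation from -0.13 to 0.08 over 2. With 1 array per group, no setting measures the spread between cultures.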

Other observations

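Probe sets that the platform annotation gives no symbol stood lower with SCF in D816V cells than those with 1 symbol. Their median difference was -0.26 over 964 probe sets, beside -0.06 over 9633, and 51 (5.29%) against 234 (2.43%) were 2-fold lower. In Del417-419insY cells the medians were -0.21 and 0.02. Among named genes, 92 long noncoding RNA genes had a median of -0.19 with 4 (4.35%) 2-fold lower, beside 79 of 6277 (1.26%) protein coding genes. Malat1, a nuclear noncoding RNA, stood at 1.53 without and 0.28 with SCF, but its 5 probe sets disagreed, from -2.29 to 0.13. Norad, a cytoplasmic one with 1 probe set, was at -0.52 without and -1.84 with SCF. The probe sets without a symbol are unnamed here, not without a gene.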
